A study of Mus musculus with 20 samples.

Results

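The 10 genes described here, Ddx58, Ifih1, Dhx58, Mavs, Trim25, Zbp1, Eif2ak2, Adar, Isg15 and Samhd1, encode sensors of RNA and Z-form nucleic acid in the cytosol, their adaptor and their effectors. They were taken by name from the 39017 gene identifiers of the count table, and each symbol matched 1 identifier, so that all 10 were found. The libraries were made from sorted microglia and sorted astrocytes of the left forebrain, the injured side, of adult male C57BL/6 mice (C57BL/6J in the study's methods) 7 days after lateral fluid percussion injury (FPI) or sham surgery, with 5 libraries for each of sham microglia, FPI microglia, sham astrocytes and FPI astrocytes. In FPI a brief fluid pulse strikes the dura through a craniectomy; sham mice had the same craniectomy, anesthesia and connection to the device without the pulse. No transgene, deletion or drug treatment is named for either group. Microglia were gated as CD11b+ cells with intermediate CD45 and astrocytes as ACSA-2+ cells, each library came from 1 cell type of 1 animal, and brain macrophages can share the microglia gate.

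RNA in the cytosol is watched by helicases that tell foreign or misplaced RNA from the cell's own. RIG-I (Ddx58) and MDA5 (Ifih1) signal through MAVS on mitochondria to IRF3 and IRF7, which induce type I interferon, and interferon in turn raises the sensors themselves together with ZBP1, PKR, ADAR1 and ISG15. In the brain, microglia are the cells best known for this response, and astrocytes can mount it too.

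The promoters of these genes are shown first. The core of the interferon-stimulated response element, found in interferon-responsive promoters, can be looked for by its letters. The part of this element in the changes after FPI was not tested. RefSeq promoter windows on GRCm38.p6, from 250 bases before to 50 bases after a start site, were found for 8 of the 10 genes; Dhx58 and Zbp1 are named only. The core GAAANNGAAA, or TTTCNNTTTC on the other strand, is in capitals below. Mavs is included as a promoter without the core, and the promoter at the downstream start of Adar as one that holds only a shorter form of it.
Isg15 (chr4:156200769-156201068, minus strand): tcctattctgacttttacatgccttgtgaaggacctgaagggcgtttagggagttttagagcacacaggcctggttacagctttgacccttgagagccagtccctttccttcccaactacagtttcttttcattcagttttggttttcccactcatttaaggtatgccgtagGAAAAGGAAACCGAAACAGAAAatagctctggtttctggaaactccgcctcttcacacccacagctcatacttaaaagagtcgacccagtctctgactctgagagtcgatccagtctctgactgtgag
Ifih1 (chr2:62646206-62646505, minus strand): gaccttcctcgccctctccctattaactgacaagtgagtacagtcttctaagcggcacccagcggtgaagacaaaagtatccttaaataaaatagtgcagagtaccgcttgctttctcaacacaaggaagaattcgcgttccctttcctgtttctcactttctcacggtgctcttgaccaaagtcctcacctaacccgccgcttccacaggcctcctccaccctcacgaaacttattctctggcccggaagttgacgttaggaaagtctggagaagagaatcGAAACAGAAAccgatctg
Ddx58 (chr4:40239776-40240075, minus strand): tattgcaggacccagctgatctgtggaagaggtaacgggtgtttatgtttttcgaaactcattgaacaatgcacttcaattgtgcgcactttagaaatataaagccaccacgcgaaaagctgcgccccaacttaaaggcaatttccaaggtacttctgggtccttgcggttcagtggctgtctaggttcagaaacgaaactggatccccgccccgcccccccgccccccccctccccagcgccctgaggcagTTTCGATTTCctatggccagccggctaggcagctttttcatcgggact
Eif2ak2 (chr17:78882523-78882822, minus strand): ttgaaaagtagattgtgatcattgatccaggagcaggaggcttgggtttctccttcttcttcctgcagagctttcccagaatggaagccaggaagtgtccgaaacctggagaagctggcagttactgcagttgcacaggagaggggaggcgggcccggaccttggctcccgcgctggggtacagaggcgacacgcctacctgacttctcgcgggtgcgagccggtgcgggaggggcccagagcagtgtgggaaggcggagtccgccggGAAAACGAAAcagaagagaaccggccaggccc
Adar (chr3:89730468-89730767, plus strand): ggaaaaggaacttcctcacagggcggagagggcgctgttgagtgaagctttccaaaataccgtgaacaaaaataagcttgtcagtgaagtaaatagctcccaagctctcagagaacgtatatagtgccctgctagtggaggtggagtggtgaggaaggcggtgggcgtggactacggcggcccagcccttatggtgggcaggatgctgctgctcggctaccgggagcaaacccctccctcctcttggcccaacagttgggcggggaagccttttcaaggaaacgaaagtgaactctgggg
Mavs (chr2:131233813-131234112, plus strand): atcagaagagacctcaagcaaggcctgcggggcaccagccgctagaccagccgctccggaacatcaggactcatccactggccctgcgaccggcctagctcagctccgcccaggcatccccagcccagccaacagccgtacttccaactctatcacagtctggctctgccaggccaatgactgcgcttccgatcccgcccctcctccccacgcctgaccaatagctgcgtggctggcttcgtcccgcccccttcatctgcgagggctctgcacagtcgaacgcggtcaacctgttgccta

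The core was present in 4 of the 8 genes with a promoter, Isg15, Ifih1, Ddx58 and Eif2ak2, against 3.99% of the 27025 genes with a promoter in the same table and 16 of 71 other genes of the pathway lists described below (22.5%). In Isg15 there were 3 overlapping matches, the first beginning 78 bases before the start and the last ending 57 bases before it. The match of Ifih1 lay 33 to 42 bases after the start, that of Eif2ak2 19 to 28 bases after it, and that of Ddx58, on the other strand, 3 to 12 bases after it. A form 1 base shorter, GAAANNGAA or GAANNGAAA on either strand, was tried after the promoters had been read. It was present in 6 of the 8 genes, now with Adar and Trim25, against 16.8% of all genes, and every longer core also holds it. In Adar it stood as GAAACGAAA from base 29 and as GAAAGTGAA from base 34 after the downstream start, with 1 more match 249 bases before that start, and it was absent at the other 2 starts. Mavs and Samhd1 held neither form in this window. These are matches of letters, and no binding was measured.

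Library totals were similar in the 4 groups, from 5623349 to 13110857 counts in sham microglia, 6890710 to 8396868 in FPI microglia, 7998479 to 10917112 in sham astrocytes and 6470553 to 10194999 in FPI astrocytes. Levels are given as CPM, counts per 1000000 counts of a library after scaling with TMM factors over the 20 libraries. The summed CPM of 10 microglia markers was 20899 to 34420 in microglia libraries and 105 to 291 in astrocyte libraries. That of 8 astrocyte markers was 9703 to 30200 in astrocyte libraries, 239 to 356 in sham microglia and 287 to 594 in FPI microglia. The astrocyte libraries also held oligodendrocyte transcripts, with a summed CPM of 6 markers from 1617 to 17189 in sham and from 3131 to 10894 in FPI libraries. In microglia libraries that sum was 134 to 192 in sham and 196 to 286 in FPI. In microglia the 6 lymphocyte markers were at 0 apart from Gzma in 1 sham library. The monocyte marker Ly6c2 was at 0 in every microglia library, while the other monocyte and macrophage markers, among them Ccr2 and Plac8, had counts in both microglia groups. Macrophage markers such as Mrc1 were higher in replicates 1 to 3 of both microglia groups, whose library names end in M, than in replicates 4 and 5, named J-A: the summed CPM of 9 monocyte and macrophage markers was 306 to 460 in sham and 148 to 272 in FPI libraries of the first kind, and 21.2 to 26.7 and 23.8 to 66.9 in those of the second. The name of FPI astrocyte replicate 5 ends like those of microglia libraries and repeats the animal number found in replicate 2 of that group. Its astrocyte title was followed, and its summed CPM was 14908 for the 8 astrocyte markers and 243 for the 10 microglia markers. It held the highest summed CPM of 6 oligodendrocyte precursor markers, 1354, against 233 to 868 in the other 9 astrocyte libraries. In replicates 4 and 5 of both astrocyte groups these precursor sums were 715 to 1354, against 233 to 483 in replicates 1 to 3. The astrocyte marker sums were 9703 to 15239 in replicates 4 and 5 and 18883 to 30200 in replicates 1 to 3. A fit with the replicate number as a block, which takes in this split, called no member in astrocytes. The part of the split alone in the estimates was not tested.

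In microglia, 8 of the 10 genes rose after FPI, from 1.64-fold for Ddx58 to 8.34-fold for Isg15, and none fell. The other 2 were Samhd1, whose 5 FPI libraries all lay above the 5 sham libraries by a smaller margin, and Mavs. Calls rest on edgeR's quasi-likelihood test and asked for an adjusted p (Benjamini-Hochberg) under 0.1 and a log2 fold change beyond 0.6 in size, and by this rule 2.13% of the 12143 genes tested in microglia were called higher and 0.214% lower. For the 10 genes the log2 fold changes had a median of 0.80, beside -0.01 for all genes tested. The groups did not overlap in 8 of the 10, all but Mavs and Eif2ak2, with the FPI libraries higher, which held for 2.17% of the genes tested. Transcripts of other cell types also differed in microglia. All 8 astrocyte markers had a positive log2 fold change, with a median of 0.85, and 1 was called higher. Of the oligodendrocyte precursor markers 1 of 3 tested was called higher, and of the oligodendrocyte markers 1 of 5. Their part in the estimates was not tested. In sorted bulk RNA, more cells with a transcript and more transcript per cell cannot be told apart.

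**Figure D1:**
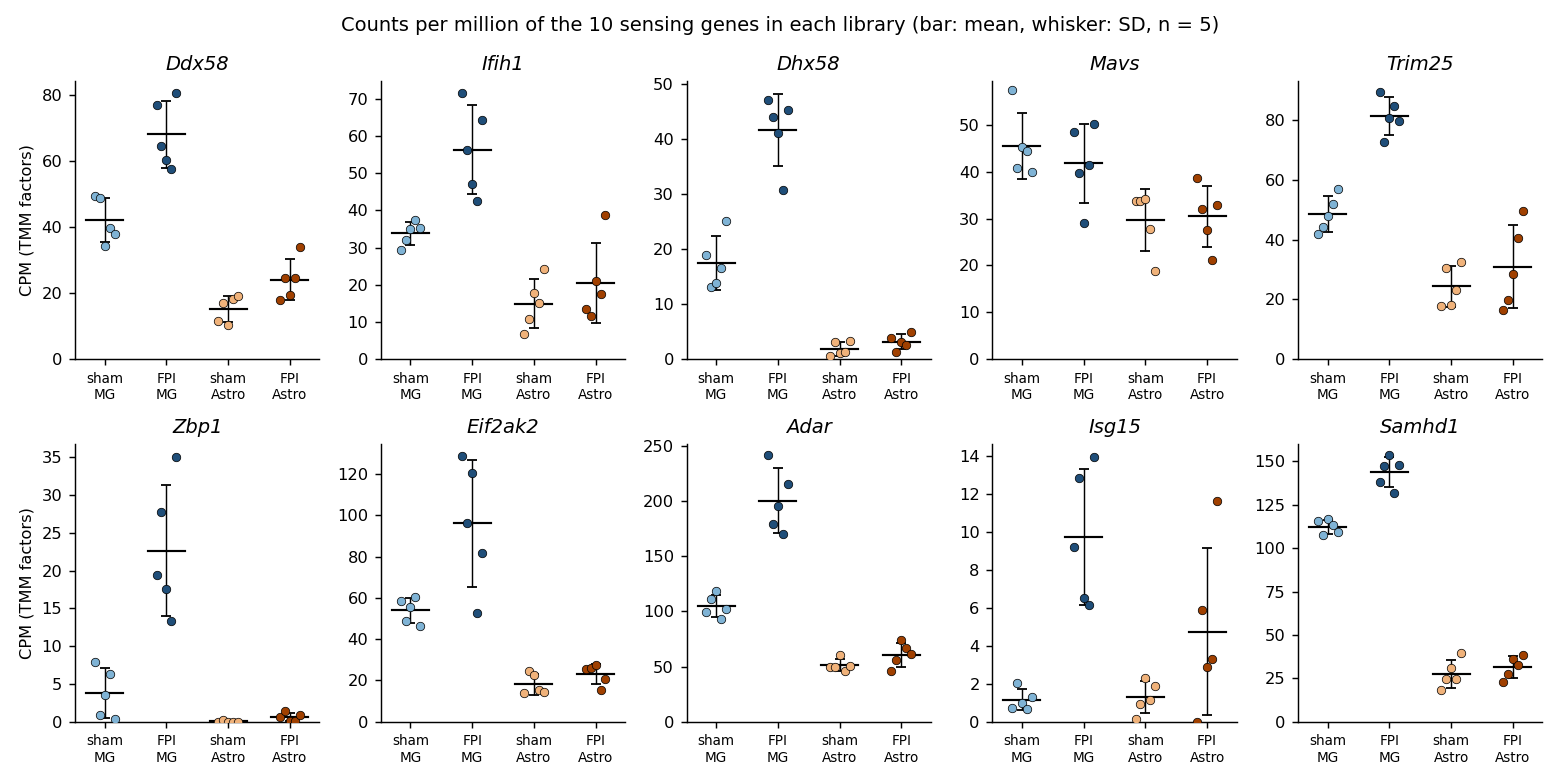
CPM (TMM-scaled, linear axes from 0) of the 10 sensing genes in each library of sham and FPI microglia (MG) and sham and FPI astrocytes (Astro); points are libraries in replicate order from left to right, horizontal bars are means and whiskers SDs (n = 5). FPI microglia stand above sham microglia without overlap in all panels except Mavs and Eif2ak2, and astrocyte groups overlap in every panel.

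Of the helicases, Ddx58 (ENSMUSG00000040296, minus strand, chr4:40203773-40239828 on GRCm38) encodes RIG-I, which binds short RNA with triphosphate ends. Ddx58 stood at 49.4, 48.7, 34.3, 39.8 and 37.8 CPM in sham microglia replicates 1 to 5 and at 76.8, 64.4, 60.3, 57.5 and 80.6 CPM in FPI microglia. The lowest FPI library was above the highest sham library. Ddx58 rose by a log2 fold change of 0.71 (SE 0.16, edgeR adjusted p = 0.0167). Ifih1 (ENSMUSG00000026896, minus strand, chr2:62595798-62646255) encodes MDA5, the sensor of long double-stranded RNA. Ifih1 stood at 29.4, 31.9, 34.9, 37.5 and 35.4 CPM in sham and at 71.6, 56.2, 47.0, 42.4 and 64.2 CPM in FPI microglia. All FPI libraries were above all sham libraries, and the FPI libraries were more widely spread. Ifih1 rose by 0.76 (SE 0.17, edgeR adjusted p = 0.0186). Dhx58 (ENSMUSG00000017830, minus strand, chr11:100694884-100704271) encodes LGP2, a helicase without signalling domains that modulates the other helicases. Its level was 18.8, 13.1, 13.8, 16.5 and 25.2 CPM in sham and 47.2, 44.1, 41.1, 30.8 and 45.3 CPM in FPI microglia, again without overlap. Dhx58 rose by 1.28 (SE 0.21, edgeR adjusted p = 0.00138), the highest estimate of the 3 helicases.

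Mavs (ENSMUSG00000037523, plus strand, chr2:131234063-131248025) encodes the mitochondrial adaptor that RIG-I and MDA5 share. It stood at 57.5, 40.9, 45.4, 44.4 and 39.9 CPM in sham and at 48.6, 39.8, 29.1, 41.5 and 50.3 CPM in FPI microglia. The groups overlapped over most of their range. The log2 fold change was -0.11 with a 95% interval from -0.48 to 0.27 (edgeR adjusted p = 0.908), so that a change above 0.27 on the log2 scale lay outside the interval. The ligase gene Trim25 (ENSMUSG00000000275, plus strand, chr11:88999376-89020293), whose product attaches ubiquitin to RIG-I and takes part in ISG15 conjugation, stood at 41.8, 44.1, 48.0, 51.9 and 56.9 CPM in sham and at 89.4, 72.5, 80.7, 84.7 and 79.5 CPM in FPI microglia. Its FPI libraries were tightly grouped above the sham libraries. Trim25 rose by 0.76 (SE 0.13, edgeR adjusted p = 0.00286).

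Zbp1 (ENSMUSG00000027514, minus strand, chr2:173206612-173218923) encodes the sensor of Z-form nucleic acid that can trigger necroptosis through RIPK3 and MLKL. Zbp1 was low and uneven in sham microglia, at 7.86, 0.95, 3.58, 6.35 and 0.378 CPM, and stood at 19.5, 27.8, 17.6, 13.4 and 35.0 CPM in FPI microglia. Even the lowest FPI library exceeded the highest sham library. It rose 5.93-fold (log2 fold change 2.57, SE 0.50, edgeR adjusted p = 0.00710). Eif2ak2 (ENSMUSG00000024079, minus strand, chr17:78852564-78882573) encodes PKR, the kinase that halts translation when it binds double-stranded RNA. It stood at 58.3, 49.0, 55.6, 60.4 and 46.5 CPM in sham and at 129, 96.3, 121, 52.7 and 81.7 CPM in FPI microglia. FPI replicate 4 lay within the sham range and the other 4 FPI libraries lay above it. Eif2ak2 rose by 0.85 (SE 0.19, edgeR adjusted p = 0.0185).

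Adar (ENSMUSG00000027951, plus strand, chr3:89715022-89753446) encodes ADAR1, which edits adenosine to inosine in double-stranded RNA and so limits its recognition by MDA5, PKR and ZBP1. It stood at 99.7, 111, 118, 92.7 and 102 CPM in sham and at 242, 179, 195, 169.8 and 216 CPM in FPI microglia, with no overlap. Adar rose 1.93-fold (log2 fold change 0.95, SE 0.13, edgeR adjusted p = 2.84e-04) and had the smallest p of the 10 genes, rank 24 of the 12143 genes tested. Isg15 (ENSMUSG00000035692, minus strand, chr4:156199424-156200818) encodes a ubiquitin-like protein that is joined to other proteins under interferon. It was scarce in sham microglia, at 0.749, 2.05, 1.01, 0.680 and 1.32 CPM (56 counts over the 5 libraries), and stood at 9.21, 12.8, 6.50, 6.15 and 13.9 CPM in FPI microglia (385 counts). Isg15 had the largest fold change of the 10 genes, 8.34-fold with a 95% interval from 4.31 to 16.2 (log2 fold change 3.06, SE 0.46, edgeR adjusted p = 5.98e-04). Samhd1 (ENSMUSG00000027639, minus strand, chr2:157097533-157135265) encodes an enzyme that depletes deoxynucleotides and restrains retroviruses. It stood at 116, 107, 117, 113 and 109 CPM in sham and at 138, 147, 153, 132 and 148 CPM in FPI microglia, the narrowest spread of the 10 genes relative to its level. The libraries did not overlap, but the log2 fold change of 0.37 (SE 0.11, edgeR adjusted p = 0.0964) was below the minimum fold, and its 95% interval ran from 0.14 to 0.59.

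**Figure D2:**
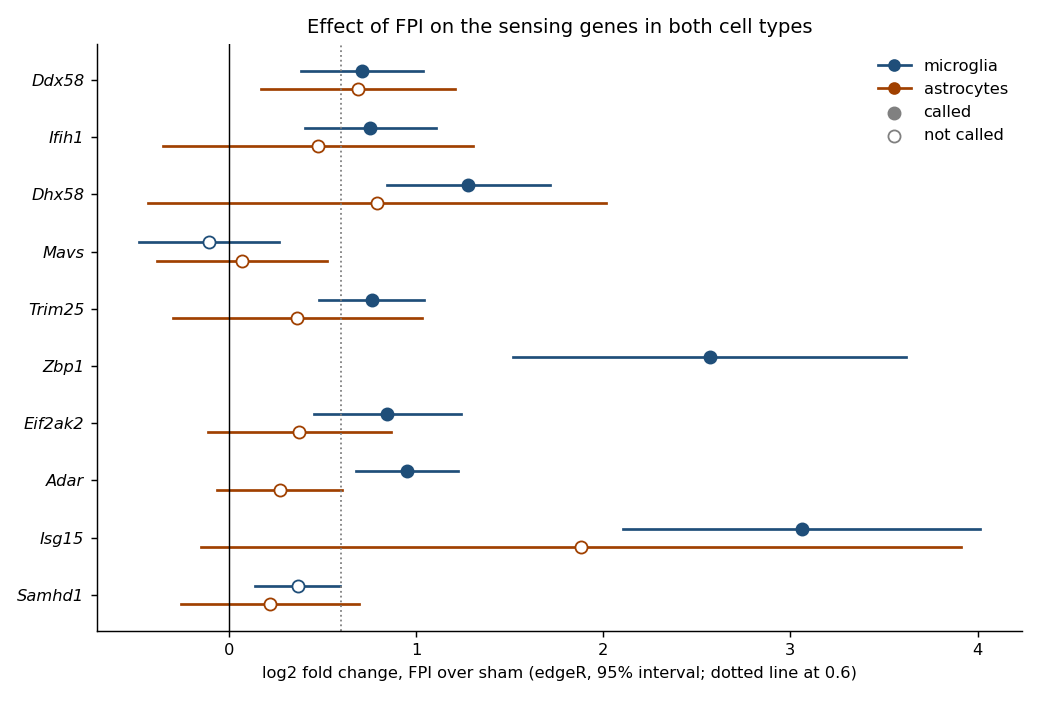
Log2 fold change of FPI over sham (horizontal axis) for each sensing gene in microglia (blue) and astrocytes (orange), as edgeR estimates with 95% intervals; filled points were called and the dotted line marks 0.6. In microglia 8 of 10 are filled, with Isg15 at 3.06 and Zbp1 at 2.57 farthest to the right and Mavs at -0.11, while no astrocyte point is filled and Zbp1 was not tested in astrocytes.

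The same 8 genes were called whichever 1 of the 10 microglia libraries was left out. In the 6 M-named libraries alone 7 of the 8 were called, where 2.15% of genes were called higher, with Ddx58 at a log2 fold change of 0.59. In the 4 J-A-named libraries, which held fewer transcripts of macrophage markers, Adar and Isg15 were called, where 0.798% of genes were, and the estimates for the 8 genes ran from 0.38 (Eif2ak2) to 3.41 (Isg15). All 8 were also called by DESeq2 (2.89% of genes called higher), with RLE factors (2.15%), with every gene kept (1.65%), with robust fitting (2.19%), with the replicate number as a block (1.91%) and with a term for the library names (2.34%). Of those still tested, 6 were called with at least 10 counts in every library (2.69%), and Adar and Zbp1 were called with all 20 libraries fitted together (0.657%), where the adjusted p of the other 6 ran from 0.1002 (Isg15) to 0.364 (Ifih1). Annotated neighbors that overlap the members held few counts, which does not show how many reads over the shared bases were left out. Adar overlaps the oppositely oriented Chrnb2 over 1365 exon bases, and Chrnb2 held 352 counts in all 20 libraries against 17469 for Adar. Dhx58 overlaps its antisense gene Dhx58os over 141 bases (22 counts against 2601), and Eif2ak2 overlaps the opposite Gm26637 over 174 bases (200 counts against 8083).

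Other genes of the same pathways were read from 8 lists that leave out the 10 genes, and 4 of the 58 tested in microglia rose after FPI while none fell, where 2.13% of all genes were called higher and 0.214% lower. These were Irf7, the transcription factor that amplifies interferon production, Usp18, the protease that removes ISG15 and damps the interferon receptor, Herc6, the mouse ligase for ISG15, and Ddx60, a helicase linked to RIG-I. Irf7 rose by a log2 fold change of 2.85 (SE 0.34, edgeR adjusted p = 6.00e-05), Usp18 by 2.47 (SE 0.29, edgeR adjusted p = 6.00e-05), Herc6 by 0.83 (SE 0.17, edgeR adjusted p = 0.0109) and Ddx60 by 0.85 (SE 0.22, edgeR adjusted p = 0.0556). The estimate for Ddx60 was 1.26 in the M-named libraries and 0.17 in the J-A-named ones, where its groups overlapped and it was not called. The median log2 fold change was 0.83 over the 5 genes of ISG15 conjugation and removal, of which 2 rose, and 0.16 over the 15 genes of signalling to the interferon genes, of which Irf7 alone rose. For Ube2l6, the ISG15 conjugating enzyme, the log2 fold change was 1.17 (SE 0.38, edgeR adjusted p = 0.150).

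No gene of DNA sensing was called among the 8 tested, a count that the share of 2.13% of all genes called higher does not set apart. Mb21d1, which encodes cGAS, had a log2 fold change of 0.17 (95% interval -0.26 to 0.60), and Tmem173, which encodes STING, one of -0.12 (95% interval -0.43 to 0.19). Trex1, the exonuclease that clears cytosolic DNA, was listed at 0 in all 20 libraries. All 1147 of its annotated exon bases lie within exons of Atrip on the same strand, which held 1972 counts, so its level could not be read. The kinase Tbk1 (0.16, 95% interval -0.09 to 0.41) and the factor Irf3 (-0.30, 95% interval -0.69 to 0.09), which carry the signal from MAVS and STING, were not called, nor was Rnaseh2b, a subunit of RNase H2 (-0.07, 95% interval -0.89 to 0.76).

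Among genes downstream of ZBP1 and PKR, 0 of 5 tested death partners and 0 of 8 eIF2 kinases and stress genes were called in microglia, and with 2.13% of all genes called higher and 0.214% lower these counts are near the background. Ripk3 had a log2 fold change of -0.35 (95% interval -1.62 to 0.93), and Mlkl was below the filter, at 0 in 3 FPI microglia libraries and at most 1.90 CPM in any microglia library. Of the 19 type I, II and III interferon genes in the table, 16 had no count in any library and none passed the filter. Ifnb1 had 3, 2 and 1 counts in FPI microglia replicates 2, 3 and 4, which made 6 in all, and 0 in the other 17 libraries. Ifnz went the other way, with 7 counts in 3 sham microglia libraries, 1 in a sham astrocyte library and 0 in FPI libraries, and Ifna11 had 4 counts in 1 FPI astrocyte library. A count of 0 allows up to 3 counts, so that a difference in these ligands was not detectable at this depth.

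**Figure D3:**
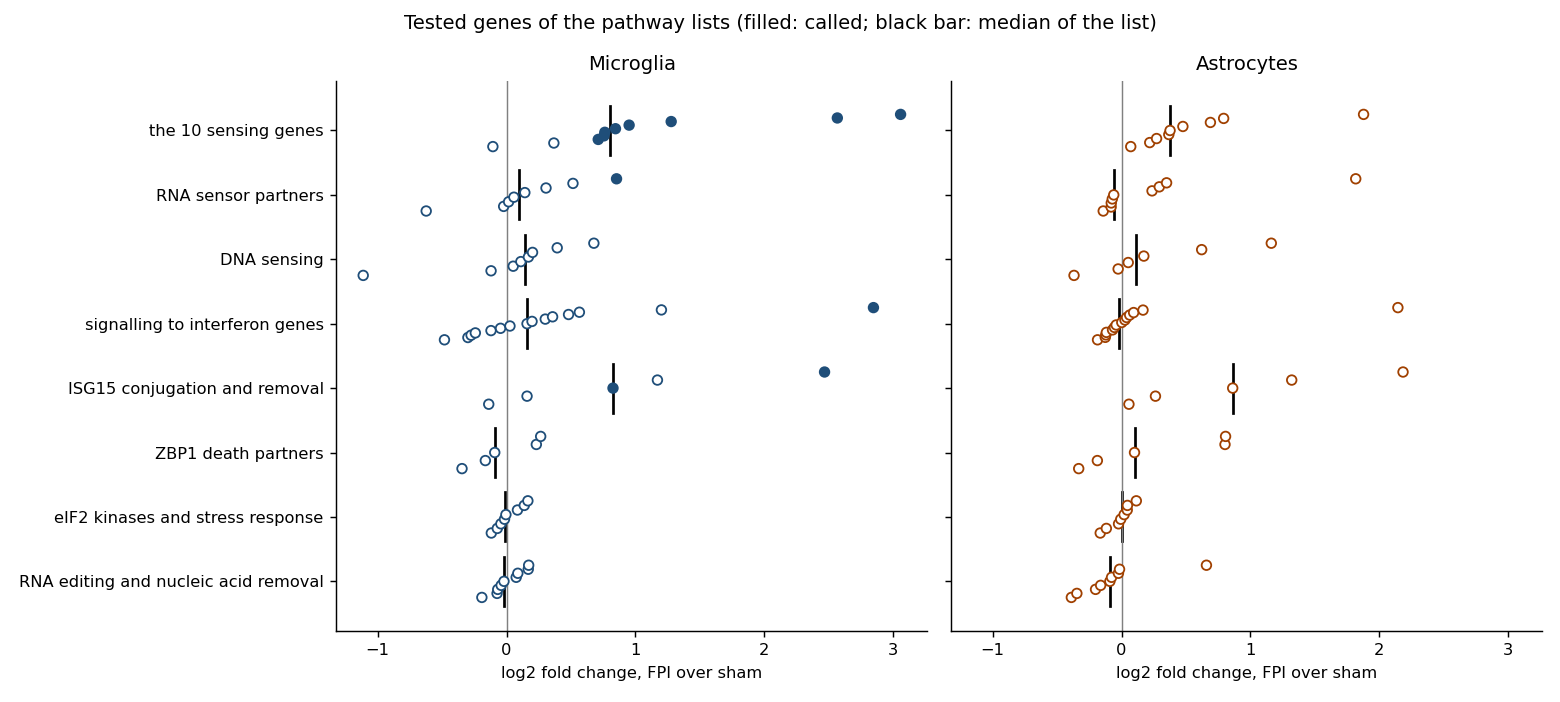
Log2 fold change of FPI over sham (horizontal axis) for each tested gene of the 10 sensing genes and of 7 pathway lists, in microglia (left) and astrocytes (right); filled points were called and black bars are medians of a list. In microglia the sensing genes have a median of 0.80 and ISG15 conjugation and removal one of 0.83, while the eIF2 and RNA editing lists center at -0.01 and -0.02, and no point is filled in astrocytes.

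In astrocytes no member was called after FPI, and the background was almost empty, with 0.00728% of the 13741 genes tested called. The 1 gene called was among the 10 microglia markers. Of these markers 8 were tested, and all 8 had a positive log2 fold change, with a median of 2.37. No member was called by DESeq2 (0.167% of genes called higher) or with all 20 libraries fitted together (0.345%). All 9 genes tested had a positive log2 fold change, with a median of 0.38 beside -0.01 for all genes, and Zbp1 did not pass the filter on low counts. In no member did the FPI libraries all exceed the sham libraries, which held for 0.451% of the genes tested. The 5 oligodendrocyte precursor markers tested all had a positive log2 fold change, with a median of 1.47, and none was called. Their summed CPM, over all 6 markers, was 302 to 1354 in FPI and 233 to 754 in sham astrocytes. The part of the oligodendrocyte, precursor and microglia transcripts in the estimates was not tested.

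Ddx58 came closest, at 11.4, 17.0, 10.2, 18.2 and 18.9 CPM in sham and 17.9, 24.6, 19.3, 24.5 and 33.8 CPM in FPI astrocytes. FPI replicates 2 to 5 lay above every sham library. Its log2 fold change was 0.69 (SE 0.24, 95% interval 0.17 to 1.21), with an unadjusted edgeR p of 0.0128 and an adjusted p of 0.999; 1.57% of genes were higher at an unadjusted p below 0.05. Ifih1 stood at 6.63, 10.8, 17.8, 15.2 and 24.1 CPM in sham and 13.6, 11.6, 21.0, 17.5 and 38.8 CPM in FPI astrocytes (log2 fold change 0.48, 95% interval -0.35 to 1.31). Dhx58 was low, at 0.530 to 3.28 CPM in sham and 1.25 to 4.95 CPM in FPI astrocytes (0.79, 95% interval -0.43 to 2.02). The sham and FPI ranges of both overlapped.

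Isg15 had the largest estimate of the 9 genes tested in astrocytes. It stood at 0.133, 0.957, 2.30, 1.13 and 1.89 CPM in sham and 0, 5.88, 2.86, 3.28 and 11.6 CPM in FPI astrocytes. FPI replicate 1 was at 0 and the other 4 FPI libraries lay above all sham libraries, and the log2 fold change of 1.88 had a 95% interval from -0.15 to 3.91 (edgeR's unadjusted p = 0.0666). Eif2ak2 had a log2 fold change of 0.38 (95% interval -0.11 to 0.87), Trim25 of 0.37 (-0.30 to 1.03), Adar of 0.27 (-0.06 to 0.61) and Samhd1 of 0.22 (-0.26 to 0.69), and Mavs had the smallest, 0.07 (-0.38 to 0.53). Zbp1 had counts of 0, 3, 0, 0 and 0 in sham and of 6, 11, 1, 1 and 6 in FPI astrocytes. In total these were 3 against 25 counts, a ratio of 9.52 with a 95% interval from 2.90 to 49.2 that covers counting error only. Replicates 2 and 5, which carry 1 animal number, were the 2 highest FPI libraries for Isg15 and held 17 of the 25 Zbp1 counts.

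FPI astrocyte replicate 5 was the highest of the 10 astrocyte libraries for 5 of the 10 genes, Ddx58, Ifih1, Dhx58, Trim25 and Isg15. It was also the library with the highest oligodendrocyte precursor markers, and their part in the result was not tested. Without it the median log2 fold change of the 9 genes was 0.25 in place of 0.38, all 9 stayed above 0, and the estimates for Isg15, Ifih1 and Trim25 became 1.21, 0.10 and 0.11. With replicates 2 and 5 summed as 1 library the median was 0.35, all 9 estimates were above 0, Isg15 was at 1.5 and Ddx58 at 0.58, and none was called. Over the fits that each left out 1 astrocyte library, the estimate ran from 0.10 to 0.72 for Ifih1, from 0.11 to 0.51 for Trim25 and from 0.08 to 0.38 for Samhd1. Among pathway genes 0 of the 56 tested were called in astrocytes, and the 3 smallest p belonged to Usp18, Ddx60 and Irf7. Their log2 fold changes were 2.19, 1.82 and 2.15, with an edgeR adjusted p of 0.999 for each. Only for Usp18 did the 5 FPI libraries all lie above the 5 sham libraries, at 5.6 to 19.1 against 0.265 to 3.28 CPM. Both Usp18 and Irf7 were highest in FPI replicate 5, at 19.1 and 22.7 CPM against at most 6.69 and 7.10 CPM in the other FPI astrocyte libraries. For Tbk1 (-0.04), Irf3 (-0.12) and Rnaseh2b (-0.08) the estimates were near 0, and Tmem173 (0.62), Ube2l6 (1.32) and Mlkl (0.80) had intervals that spanned 0.

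Microglial transcripts were present at a low level in the astrocyte libraries and were higher after FPI. The summed CPM of the 10 microglia markers was 105 to 180 in sham and 141 to 291 in FPI astrocytes. Set against the level in FPI microglia, the difference between FPI and sham astrocytes came to 0.113% to 0.594% for the 10 markers. For the sensing genes the same quantity was 35.5% for Isg15, 13.1% for Ddx58, 9.93% for Ifih1, 8.10% for Trim25, 5.17% for Eif2ak2, 4.81% for Adar, 3.15% for Dhx58, 2.83% for Samhd1, 2.59% for Zbp1 and 1.99% for Mavs. The astrocytes held the sensing genes themselves at 1.36% to 110.3% of the sham microglia level and the markers at 0.0195% to 7.15%, and no member's difference was called. The part of microglial RNA in the astrocyte estimates was not tested.

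**Figure D4:**
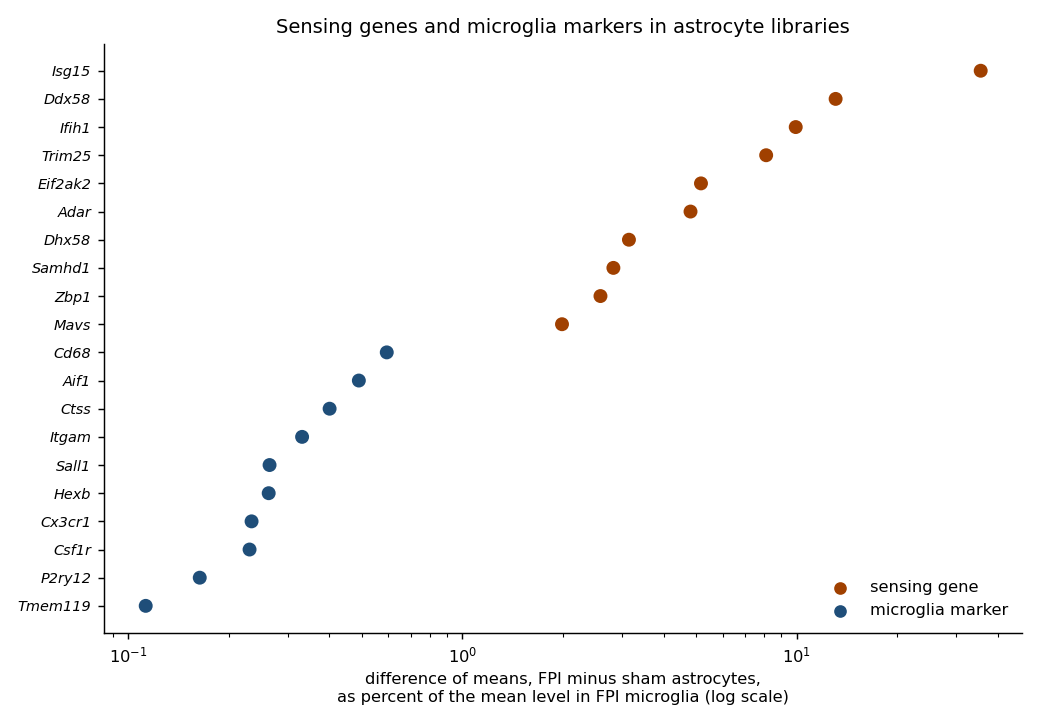
Difference of mean CPM between FPI and sham astrocytes as a percent of the mean CPM in FPI microglia (log horizontal axis) for the 10 sensing genes (orange) and 10 microglia markers (blue). The markers lie between 0.113% and 0.594% and the sensing genes between 1.99% (Mavs) and 35.5% (Isg15).

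A difference in the effect of FPI was tested as the microglia effect minus the astrocyte effect over all 20 libraries, and none of the 10 genes was called, where 0.199% of the 15077 genes tested were. The estimate was positive for 8 of the 10 and negative for Mavs and Zbp1, and it was positive for 51.5% of all genes tested. Adar came closest, with an effect of 0.93 in microglia and 0.25 in astrocytes in this fit, a difference of 0.69 (95% interval 0.27 to 1.10, edgeR adjusted p = 0.290). It alone of the 10 had an unadjusted p below 0.05, as did 7.02% of all genes. DESeq2 called Adar at an adjusted p of 0.0924, where 0.511% of genes were called higher. By direction, DESeq2 called 77 genes higher and 114 lower, and edgeR 5 higher and 25 lower. The call of Adar thus depended on the tool, and over all alternatives its adjusted p ran from 0.0924 to 0.667. For Ddx58 the difference was 0.03 (95% interval -0.57 to 0.63), for Mavs -0.16 (-0.74 to 0.41) and for Samhd1 0.16 (-0.34 to 0.65). For Isg15 (1.18, 95% interval -1.01 to 3.37), Dhx58 (0.51, -0.58 to 1.60) and Zbp1 (-0.49, -2.46 to 1.47) the intervals were wide. Zbp1 had an effect of 2.56 in microglia and 3.05 in astrocytes in this fit, the latter from few counts. The larger number of calls in microglia is not itself a test of a difference between cell types. The tested difference was not called by edgeR for any of these genes, and DESeq2 called it for Adar alone. The animal numbers in the names show that for 3 animals both cell types were sequenced, and the fit took all libraries as independent.

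In sham mice 9 of the 10 genes were higher in microglia than in astrocytes, where 25.3% of the 15077 genes tested were called higher and 60.9% were called in either direction. The exception was Isg15, with 1.16 ± 0.556 CPM in sham microglia and 1.28 ± 0.844 CPM in sham astrocytes (SD, n = 5 each) and a log2 difference of -0.13 (95% interval -1.73 to 1.47). The 2 cell types thus started from levels of Isg15 that could not be told apart at this depth, and reached 9.73 ± 3.57 and 4.73 ± 4.39 CPM after FPI. The helicases differed unequally. Dhx58 was higher in microglia by a log2 difference of 3.21 (SE 0.39), Ddx58 by 1.47 (SE 0.21) and Ifih1 by 1.18 (SE 0.31), with edgeR adjusted p of 3.32e-07, 2.33e-06 and 0.00214. Samhd1 was higher by 2.03 (SE 0.17), Eif2ak2 by 1.57 (SE 0.23), Adar by 1.04 (SE 0.14) and Trim25 by 0.99 (SE 0.25). For Mavs the difference was 0.62 (SE 0.20, edgeR adjusted p = 0.00908), just past the minimum fold, and it fell below that minimum under DESeq2 (0.54) and with RLE factors (0.54). RLE factors also moved the median over all genes from -0.15 to -0.24.

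Of the 10 genes Zbp1 had the largest ratio between the cell types, with 166 counts in sham microglia and 3 in sham astrocytes, a ratio of 57.3 with a 95% interval from 19.3 to 281 that covers counting error only. After FPI it was 897 against 25 counts (37.1, 95% interval 25 to 57.6). For the other 9 genes the mean level in sham astrocytes was 10.6% (Dhx58) to 110.3% (Isg15) of that in sham microglia. For 9 of the 10 microglia markers it was at most 0.520%, and for the remaining one, Sall1, 7.15%. Of the other pathway genes, 34 of 60 tested were higher in sham microglia and 5 lower, where 25.3% of all genes were called higher and 35.6% lower. Tmem173 was higher in sham microglia by a log2 difference of 6.51 (SE 0.33) and Mb21d1 by 4.41 (SE 0.55), while Irf3 (0.28, 95% interval -0.13 to 0.69) and Rnaseh2b (-0.05, 95% interval -0.86 to 0.75) were not called. Ripk3 was higher by 3.35 (SE 0.98), whereas Mlkl, at most 2.46 CPM in any sham library, was not called.

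Levels of different genes were compared as CPM per kilobase of annotated exon. In sham microglia Mavs (13.6 ± 2.1), Adar (12.9 ± 1.23) and Samhd1 (12.3 ± 0.443) were highest, with gaps between neighbors below the larger of their SDs, and Eif2ak2 (10.6), Trim25 (8.44), Ddx58 (5.96), Dhx58 (5.34), Ifih1 (4.14), Isg15 (1.54) and Zbp1 (1.08) followed. The gaps from Ddx58 to Dhx58, from Dhx58 to Ifih1 and from Isg15 to Zbp1 were within that spread. In FPI microglia Adar stood first at 24.7 ± 3.59, within the spread of the next gene, Eif2ak2 (18.8 ± 6.01), followed by Samhd1 (15.7) and Trim25 (14.1), and Mavs was 7th of 10 at 12.5 ± 2.52. Isg15, Dhx58 and Mavs, at 12.9, 12.7 and 12.5, did not differ beyond their spread, nor did Ifih1 (6.89) and Zbp1 (6.42) at the end of the order. In both astrocyte groups Mavs was first, at 8.88 ± 1.96 in sham and 9.12 ± 1.96 in FPI libraries, and Zbp1 last; Mavs led Adar beyond the spread in sham but not in FPI libraries. Isg15 moved from 8th of 10 in sham astrocytes (1.69 ± 1.12) to 3rd in FPI astrocytes (6.26 ± 5.81), where its SD nearly equalled its mean and its gaps to both neighbors were within the spread.

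**Figure D5:**
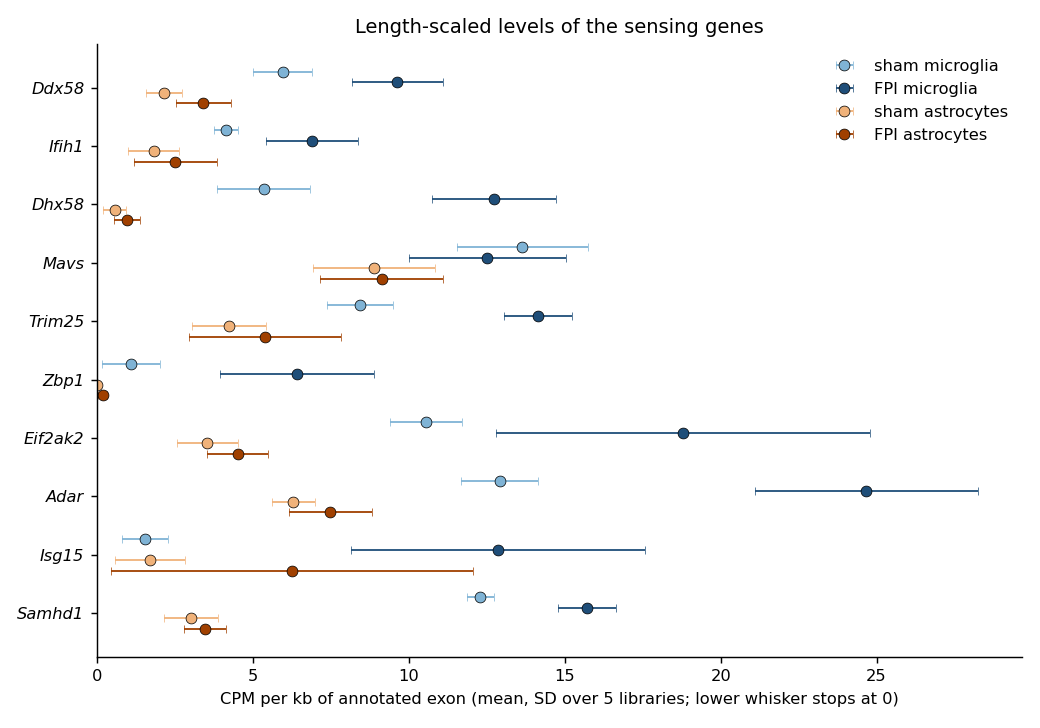
Mean CPM per kilobase of annotated exon (horizontal axis, linear from 0; whiskers are SDs over 5 libraries, cut at 0) of each sensing gene in sham and FPI microglia and sham and FPI astrocytes. Mavs lies at 12.5 to 13.6 in microglia whether sham or FPI, while Adar reaches 24.7 and Isg15 goes from 1.54 to 12.9.

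The genes varied together across the 10 microglia libraries, with a median Pearson correlation of log2 CPM of 0.81 over the 45 pairs. With the group means removed the median was 0.33. For Mavs, whose level did not shift between the groups beyond its spread, correlations to the other 9 genes ran from -0.18 to 0.15, and from 0.03 to 0.67 with group means removed. In astrocytes the median over 36 pairs was 0.49, and 0.39 with group means removed. These are descriptions over 10 libraries that share the 2 groups. Of 12133 other genes tested in microglia, those whose log2 CPM followed the mean of the 10 standardized genes most closely included Znfx1 (r = 0.985), Sdc3 (r = 0.978), Mnda (r = 0.974) and Oasl2 (r = 0.974), over 10 libraries. Znfx1 is a helicase that binds RNA at mitochondria, and Oasl2 belongs to the 2′-5′ oligoadenylate synthetase family. Znfx1 itself had a log2 fold change of 0.54 after FPI (SE 0.11, edgeR adjusted p = 0.0141), below the minimum fold. In astrocytes the 5 closest of 13732 genes were Col6a1 (r = 0.968), Clec3b (r = 0.956), Emid1 (r = 0.951), Gbp3 (r = 0.946) and Col1a1 (r = 0.945), and none of them was called after FPI. Col6a1 and Col1a1 encode collagens, and Gbp3 is an interferon-induced GTPase.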

How the data were processed

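Total RNA of sorted cells was sequenced with a stranded kit for picogram input. The authors aligned reads with HISAT2 2.1.0 to GRCm38.p6 (mm10) and deposited whole-number counts per gene; the submitters' processing notes list featureCounts, whose strand setting is not given in the sources used here. Groups came from sample titles, with 0 columns left unmapped. Each cell type was fitted alone, FPI against sham, in edgeR 4.0.16 (R 4.3.3) with filterByExpr, TMM factors and the quasi-likelihood test; all 20 libraries were fitted together for contrasts between cell types. P-values were adjusted over all genes tested (Benjamini-Hochberg). Calls asked for an adjusted p under 0.1 and a log2 fold change beyond 0.6 in size, or the adjusted p alone for the difference of effects. SEs are the log2 fold change over the root of F. The fit was also run on simulated independent counts with known changes. These held no library name series and no repeated animal, so that the part of those could not be tested there. DESeq2 1.42.0, RLE factors, 2 other filters, robust fitting, a replicate block, a term for library names, other thresholds and leaving out libraries were alternatives. Identifiers and exon lengths came from GENCODE M21 (37607 matched). Correlations used a prior count of 2. Named pathway genes were a preset 12 and those called; the nearest genes were the 5 with the highest correlation per cell type, of which 1 is not reported here. The 10 genes and all lists were chosen with earlier results of these data known. Replicates were separate animals, except that FPI astrocyte replicates 2 and 5 share an animal number. Precision follows from library totals of 5623349 to 13110857 counts, and intervals of counts cover counting error only.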

Additional observations from a re-analysis of the deposited data

Results flagged for a closer look

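Of the 40 groups of 5 levels examined, 1 held a library far from the others by Dixon's ratio, while chance gives about 1 in 20. Zbp1 in sham astrocyte replicate 2 stood at 0.261 CPM, from 3 counts, and the other 4 sham astrocyte libraries were at 0, so that the library was at the floor of 3 counts used throughout.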

How the results depend on the processing

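In microglia the same 8 genes were called by DESeq2, with RLE factors, with all genes kept that had a count, with robust fitting, with the replicate block, with a term for the library names and without any 1 library (8 to 8 called). With at least 10 counts required in every library Isg15 and Zbp1 were not tested and 6 were called. With all 20 libraries fitted together 2 were called, Adar and Zbp1, with Isg15 at an adjusted p of 0.1002; in the J-A-named libraries alone, an alternative added after seeing the data, 2 members and 2 pathway genes were called, from fewer libraries, and Mavs had a log2 fold change of 0.173. Samhd1 passed where no minimum fold was asked. Pathway genes called numbered 3 to 5 without 1 library. In astrocytes 0 members were called under any alternative (0 to 0 without 1 library), and pathway genes called were 1 by DESeq2 (Usp18), 2 with all libraries fitted together (Usp18 and Ddx60) and 0 to 0 without 1 library. For the difference of effects DESeq2 called 1 member (Adar), and 0 to 0 were called without 1 library. That difference turned to -0.280 for Ddx58 and -0.0537 for Ifih1 without the astrocyte libraries of the animals that gave both cell types, and to -0.0604 for Ddx58 without their microglia libraries; the cause was not tested. In sham mice 8 to 9 members and 35 to 42 pathway genes were called without 1 library, and 24 pathway genes under the filter of 10 counts, where fewer were tested. Mavs was at 0.480 under that filter, 0.556 without sham microglia replicate 1, 0.542 without sham astrocyte replicate 5 and 0.464 without the astrocyte libraries of the shared animals, where Isg15 was at 0.0578. Leaving out 1 library took Mavs from -0.201 to 0.00942 in microglia and from -0.0593 to 0.179 in astrocytes, Isg15 in sham mice from -0.442 to 0.220, and the difference of effects from -0.0822 to 0.175 for Ddx58 and from -0.0263 to 0.246 for Samhd1. The replicate numbers were not taken as pairs, because same-numbered libraries did not all correlate above 0.1 (-0.0660 to 0.0924 in microglia; in astrocytes 4 of 5 numbers did, at 0.245 to 0.452, and number 2 did not, at -0.00927). The replicate block took the genes called from 285 to 255 in microglia and from 1 to 11 in astrocytes and changed no call of a member. Counts of 0 to 3 limit Zbp1 and the interferon genes in astrocytes.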
